A study of Mus musculus with 8 samples.

Results

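The genes described here are 51 genes that carry cells through mitosis: regulators of mitotic entry, the spindle assembly checkpoint, spindle kinases, the kinetochore, condensin, anaphase and cytokinesis. They were chosen by name from their known functions, with earlier results of these data known. The kinesins were left out apart from the kinetochore motor Cenpe. All 51 were found among the 23343 gene symbols of the deposited tables. The RNA came from testes of C57BL/6 mice at postnatal day 7, from Thy1+ and from cKit+ spermatogonia. Each population came as PRC1ctrl (called control here) or as PRC1dKO (dKO), which gives 4 groups of 2 libraries each. PRC1 is Polycomb repressive complex 1, which places ubiquitin on histone H2A and helps to keep developmental genes silent. The labels give neither the genotype of the controls nor the deleted genes, the Cre line that deletes them or the cells in which it is active. They do not say whether the 2 libraries of a group came from separate animals. If they did not, the p-values measure only the spread between these libraries, which may be technical.

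At the start of mitosis CDK1 bound to cyclin B phosphorylates many proteins, and condensin compacts the chromosomes. Kinetochores, built on centromeric chromatin, attach the chromosomes to the spindle, and the checkpoint proteins hold back the anaphase-promoting complex (APC/C) until every chromosome is attached. The APC/C then triggers the destruction of securin and cyclin B, separase cuts cohesin, and the cell divides. Most of these genes are transcribed in a wave late in the cell cycle, and their RNA is low in cells that do not divide. At postnatal day 7 the spermatogonia of the mouse testis divide, first as undifferentiated cells, which Thy1 sorting enriches, and then as differentiating cells that carry Kit.

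The late cell cycle wave is known to run through 2 kinds of promoter element: the CCAAT box, bound by NF-Y, and the CHR element (TTTGAA or TTTAAA), bound by MuvB complexes that recruit B-MYB and FOXM1. The RefSeq promoter table (GRCm38.p6, 250 bases before to 50 after each start site) held 43 of the 51 genes. CCAAT, on either strand, occurred in 34 of these 43 windows (79.1%) and in 37.9% of all 27025 promoter windows of the same length. At least 2 CCAAT matches occurred in 51.2% of the genes' windows and in 12.2% of all windows. TTTGAA, on either strand, occurred in 67.4% of the genes' windows against 18.1% of all, and TTTAAA, which reads the same on both strands, in 20.9% against 13.2%. CCAAT together with TTTGAA or TTTAAA was present in 65.1% of the genes' windows and in 10.9% of all windows. Matches that overlapped each other were each counted, and a match is only a run of letters, not a shown binding site.

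The 200 bases before the start site of 6 genes follow, 5′ to 3′ on the gene's strand. They set 3 genes that fell more than 3-fold in cKit dKO (Ccnb1, Bub1 and Espl1) beside 3 that did not pass the test. These are the paralog of Ccnb1 (Ccnb2), the kinase that cyclin B1 activates (Cdk1) and the partner of BUB1 (Bub3). Capitals mark the CCAAT box on either strand (ATTGG on the other) and the CHR forms named above on either strand. The windows are chr13:100786487-100786686 (minus strand) for Ccnb1, chr9:70421555-70421754 (minus) for Ccnb2, chr10:69352913-69353112 (minus) for Cdk1, chr2:127831860-127832059 (minus) for Bub1, chr7:131560170-131560369 (plus) for Bub3 and chr15:102296093-102296292 (plus) for Espl1, in GRCm38 (mm10).
Ccnb1: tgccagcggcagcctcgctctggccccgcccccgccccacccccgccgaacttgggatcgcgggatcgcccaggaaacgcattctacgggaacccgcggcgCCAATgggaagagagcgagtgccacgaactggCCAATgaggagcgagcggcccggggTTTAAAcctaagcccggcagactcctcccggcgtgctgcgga
Ccnb2: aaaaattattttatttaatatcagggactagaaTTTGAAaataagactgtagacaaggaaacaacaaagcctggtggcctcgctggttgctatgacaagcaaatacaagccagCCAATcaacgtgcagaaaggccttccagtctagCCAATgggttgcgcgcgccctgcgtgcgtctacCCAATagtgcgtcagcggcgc
Cdk1: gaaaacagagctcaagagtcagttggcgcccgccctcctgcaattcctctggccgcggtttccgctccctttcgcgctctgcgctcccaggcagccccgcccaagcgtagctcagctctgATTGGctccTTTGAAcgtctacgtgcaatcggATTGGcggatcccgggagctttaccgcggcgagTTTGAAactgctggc
Bub1: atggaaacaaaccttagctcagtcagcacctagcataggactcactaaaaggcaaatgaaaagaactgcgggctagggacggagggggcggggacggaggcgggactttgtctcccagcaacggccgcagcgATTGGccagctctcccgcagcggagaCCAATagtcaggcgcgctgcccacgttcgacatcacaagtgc
Bub3: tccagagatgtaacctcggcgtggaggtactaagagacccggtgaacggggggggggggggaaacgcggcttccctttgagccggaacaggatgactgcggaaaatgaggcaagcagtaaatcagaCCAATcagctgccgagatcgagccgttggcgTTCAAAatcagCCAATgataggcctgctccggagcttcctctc
Espl1: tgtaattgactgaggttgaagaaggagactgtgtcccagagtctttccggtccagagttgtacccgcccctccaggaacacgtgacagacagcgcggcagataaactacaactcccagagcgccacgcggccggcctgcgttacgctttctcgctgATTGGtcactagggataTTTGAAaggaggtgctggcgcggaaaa
All 6 held at least 1 CCAAT box. Of the 3 that fell, Ccnb1 held TTTAAA, Espl1 held TTTGAA and Bub1 held neither CHR form. Cdk1, Ccnb2 and Bub3, which did not pass the test, all held TTTGAA. Among the 35 matched genes that fell in cKit dKO, 27 windows held CCAAT and 29 held TTTGAA or TTTAAA. Of the 8 matched genes that did not pass, 7 windows held CCAAT and 4 held TTTGAA or TTTAAA. None of the 3 motifs was in the searched windows of Pttg1, which did not pass, or of Mad2l1, Ncaph and Nuf2, which fell. Only 1 start site per gene was searched, and it equalled a deposited start in 34 of the 43 windows. The other deposited start of Pttg1, at chr11:43426248, was not searched. For Mad2l1 the bases before the searched start end at chr6:66535220, while its deposited entry starts at 66535468. Motifs near those other starts could have been missed.

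The libraries had 6763908 to 10976869 counts, and the 51 genes together took 0.456% to 0.551% of the counts in cKit control, 0.216% and 0.252% in cKit dKO, and 0.450% to 0.497% in the 4 Thy1 libraries. No library had 0 counts for any of the 51 genes. Levels are given as CPM, counts divided by the library size after scaling with the trimmed mean of M-values (TMM). Rnf2, which encodes a catalytic subunit of PRC1, was at 103 and 120 CPM in Thy1 control and 128 and 126 CPM in Thy1 dKO. In cKit it was at 146 and 125 CPM in control and 134 and 141 CPM in dKO. Ring1, its paralog, was at 2.59 to 12.0 CPM over the 8 libraries. Reads counted over a whole gene can come from outside a deleted exon, so neither gene serves as a test of the genotype. Kit was at 938 to 1059 CPM in the cKit libraries and at 281 to 317 CPM in the Thy1 libraries.

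Cell type markers differed between the same groups. The 12 germ cell markers (among them Ddx4, Dazl and Piwil2) summed to 2482 and 1956 CPM in cKit control and to 599 and 787 CPM in cKit dKO, and all 12 fell, with a median log2 change of -1.76. Their sum was 2750 and 3118 CPM in Thy1 control and 2519 and 2214 CPM in Thy1 dKO. Somatic markers were present in both populations. The 7 Leydig cell markers summed to 11042 and 13257 CPM in cKit control and 15407 and 18018 CPM in cKit dKO. In Thy1 they summed to 2549 to 4191 CPM, and Hsd3b1 made up most of the sum. The 10 peritubular and stromal markers went the other way, with sums of 10168 to 13712 CPM in the Thy1 libraries and 3021 to 5976 CPM in the cKit libraries. The 7 macrophage markers summed to 842 to 1342 CPM in Thy1 and 144 to 504 CPM in cKit. In cKit dKO against control, 5 of 7 Leydig markers rose and 1 fell, 5 of 11 tested Sertoli markers rose, as did 7 of 10 peritubular and stromal, 3 of 7 endothelial and 2 of 5 mast cell markers, and none of 7 macrophage markers passed. These counts stand beside 13.2% of all genes tested that rose and 15.4% that fell. Summed levels in cKit dKO were 174% of control for the Sertoli list, 176% for the peritubular and stromal list, 201% for the endothelial list and 167% for the mast cell list. In Thy1 dKO they were 146% of control for the endothelial list, 140% for the macrophage list, 139% for the Leydig list and 125% for the Sertoli list. The peritubular and stromal list stood at 97.5% there, the mast cell list at 94.7% and the germ cell list at 80.7%. Single genes dominated some sums. Cdh5 gave a mean of 345 of the 397 CPM of the endothelial list in cKit dKO and 171 of 198 CPM in cKit control. Gata4 gave 480 of the 746 CPM of the Sertoli list in cKit dKO and 268 of 430 CPM in cKit control. By sign alone, 6 of 7 endothelial and 9 of 11 tested Sertoli markers were above 0 in cKit dKO. Of the defining markers, Fcer1a (mast cell) was at 0 in 7 of the 8 libraries. In bulk RNA, fewer cells of a type and less RNA per cell cannot be told apart, and the part of these marker differences in the results below was not tested.

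**Figure D1:**
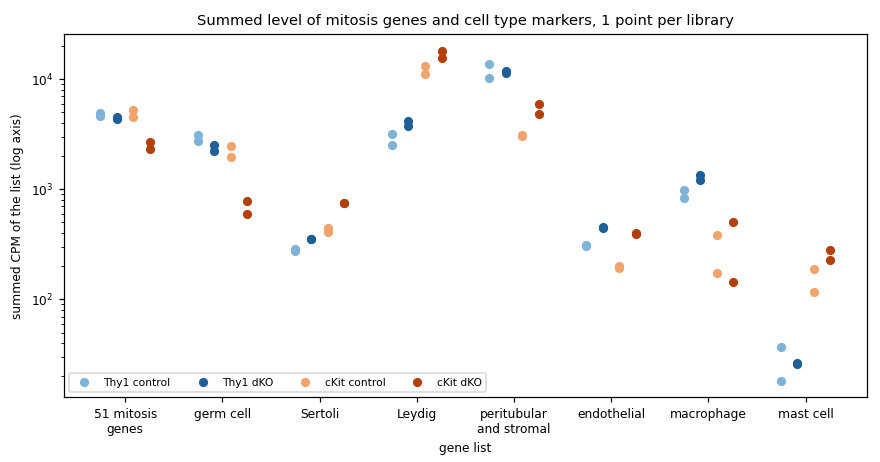
Summed level of the 51 mitosis genes and of each marker list in every library (CPM, log axis; 1 point per library, colours by group). The mitosis genes and the germ cell markers are lowest in the 2 cKit dKO libraries, while Leydig markers are higher in all 4 cKit libraries than in any Thy1 library.

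In cKit+ cells the mitosis genes were lower in dKO than in control. Their summed level was 5237 and 4574 CPM in the cKit control libraries and 2339 and 2687 CPM in the cKit dKO libraries, so that dKO had 51.2% of the control level, and the groups did not overlap. By quasi-likelihood tests in edgeR, adjusted over all 14907 genes tested by the Benjamini-Hochberg method (threshold 0.05), 42 of the 51 fell, 0 rose and 9 did not pass. Among all genes tested, 15.4% fell and 13.2% rose. At least 2-fold decreases were called for 23 of the 51 genes, against 6.59% of all genes. The median log2 change of the 51 genes was -0.93, and that of all genes 0.03. Both libraries of dKO lay below both of control for 46 of the 51 genes, against 30.0% of all genes, and the groups overlapped for the other 5.

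These directions are relative to the median gene. Scaled instead on the summed counts of the germ cell markers, which fell further than the mitosis genes, the median gene moved to a log2 change of 1.72 in cKit dKO, the 51 genes had a median of 0.76, 30 of them were called higher and 0 lower. The share of all genes called higher under this scaling is not given here, so the count of 30 has no background. Relative to the median gene, the median of the 51 was -0.96 under either scaling. A change of scaling moves all genes by nearly the same amount, so this agreement was fixed in advance and adds no evidence. The ratio of the summed mitosis genes to the summed germ cell markers was 2.11 and 2.34 in cKit control and 3.90 and 3.41 in cKit dKO. It was 1.69 and 1.56 in Thy1 control and 1.78 and 1.97 in Thy1 dKO.

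**Figure D2:**
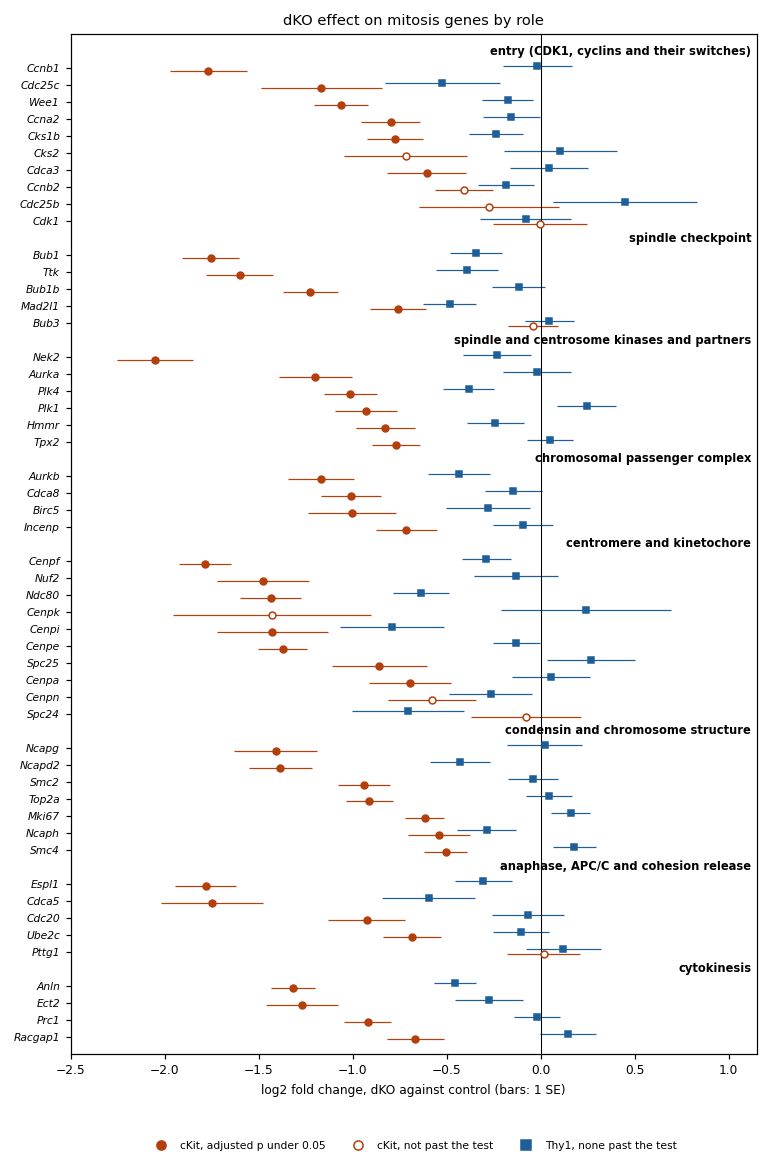
Log2 fold change of dKO against control for each of the 51 genes, by role (points; bars are 1 SE; changes relative to the median gene by TMM scaling). In cKit (filled circles passed the test, open circles did not) 42 genes lie below 0 and passed, and in Thy1 (squares) none passed; under germ cell scaling 45 of the cKit points would lie above 0.

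Among the entry regulators, 6 of 10 fell and the median log2 change was -0.75. Ccnb1, cyclin B1, was at 79.1 and 62.9 CPM in cKit control and 16.8 and 24.9 CPM in cKit dKO. Both dKO libraries lay far below both controls, a 3.40-fold decrease (log2 -1.77 ± 0.20 SE, adjusted p = 2.46e-05). Its paralog Ccnb2, cyclin B2, was at 50.7 and 59.0 CPM in control and 44.2 and 38.4 CPM in dKO, a log2 change of -0.41 ± 0.15 that did not pass (adjusted p = 0.0617). Cdk1, the kinase that both cyclins activate, overlapped between the groups, with 15.2 and 23.6 CPM in control and 16.3 and 22.1 CPM in dKO (log2 -0.0030 ± 0.25, adjusted p = 0.996). Cdc25c, a phosphatase that activates CDK1, fell from 20.6 and 15.8 CPM to 5.28 and 10.98 CPM (log2 -1.17 ± 0.32, adjusted p = 0.0139). That call was lost without cKit dKO replicate 1 (log2 -0.69) and without cKit control replicate 1. Its relative Cdc25b stood at 9.18 and 9.19 CPM in control and at 4.80 and 10.4 CPM in dKO, the groups overlapped, and the change did not pass (log2 -0.28 ± 0.37, adjusted p = 0.629). Wee1, the kinase that restrains CDK1, fell by 1.06 on the log2 scale, Ccna2 (cyclin A2) by 0.80 and Cks1b, a CDK-binding subunit, by 0.77. Cks2, the paralog of Cks1b, was low, with 6.67 and 8.55 CPM in control and 4.64 and 4.55 CPM in dKO, and did not pass (log2 -0.72 ± 0.33, adjusted p = 0.115). Cdca3, a trigger of mitotic entry, was called at log2 -0.61 but passed in only 5 of 17 other settings.

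Of the 5 spindle checkpoint genes, 4 fell, with a median of -1.22. Bub1, the checkpoint kinase, was at 114 and 92.4 CPM in cKit control and 28.8 and 32.3 CPM in cKit dKO, a 3.37-fold decrease (log2 -1.75 ± 0.15, adjusted p = 4.14e-06). Ttk, the kinase also known as MPS1, was at 79.9 and 62.9 CPM in control and 20.0 and 27.1 CPM in dKO, a 3.03-fold decrease (log2 -1.60 ± 0.18, adjusted p = 2.07e-05). For both kinases the groups were well apart. Bub3, the adaptor that brings BUB1 and BUBR1 to the kinetochore, was level in all 8 libraries. Its cKit values were 63.8 and 59.1 CPM in control and 58.3 and 61.3 CPM in dKO, and its Thy1 values were 62.1 to 65.5 CPM. Its change in cKit was log2 -0.041 ± 0.13 (adjusted p = 0.853). Bub1b (BUBR1) fell by 1.22 and Mad2l1 (MAD2) by 0.76 on the log2 scale.

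All 6 spindle and centrosome genes fell, with a median of -0.97. Nek2, a kinase of centrosome separation, had the largest decrease of the 51 genes in cKit, from 66.0 and 61.6 CPM to 19.5 and 11.3 CPM (4.15-fold, log2 -2.05 ± 0.20, adjusted p = 7.53e-06). Aurka, Aurora A, was at 30.4 and 30.8 CPM in control and at 13.3 CPM in both dKO libraries (log2 -1.20 ± 0.19, adjusted p = 0.000376). Tpx2, the activator of Aurora A, had the smallest change of the 6, from 113 and 100 CPM to 63.4 and 62.0 CPM (log2 -0.77 ± 0.13, adjusted p = 0.000398). In each of these 3 genes both dKO libraries were below both controls. Plk4, which starts centriole duplication, fell by 1.01, Plk1 by 0.93 and Hmmr, a spindle protein, by 0.83 on the log2 scale.

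The chromosomal passenger complex, which corrects wrong attachments, fell in all 4 of its subunits. Aurkb, its kinase Aurora B, was at 56.1 and 45.9 CPM in cKit control and 22.1 and 23.4 CPM in cKit dKO (log2 -1.17 ± 0.17, adjusted p = 0.000190). Cdca8, borealin, was at 62.5 and 66.0 CPM in control and 27.5 and 36.2 CPM in dKO (log2 -1.01 ± 0.16, adjusted p = 0.000298). Incenp, the scaffold, was at 110 and 96.5 CPM in control and 54.3 and 71.4 CPM in dKO (log2 -0.71 ± 0.16, adjusted p = 0.00406). None of these 3 overlapped between the groups, and Birc5 (survivin) fell too (log2 -1.002 ± 0.23, adjusted p = 0.00494).

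Centromere and kinetochore genes had the lowest median of the 8 roles, -1.40, and their summed level in cKit dKO was 36.4% of control. Of 10 genes, 7 fell. Cenpf, a large outer kinetochore protein, was at 495 and 387 CPM in cKit control and 114 and 142 CPM in cKit dKO, a 3.44-fold decrease (log2 -1.78 ± 0.14, adjusted p = 2.22e-06). Nuf2, a subunit of the NDC80 complex that grips microtubules, went from 27.7 and 23.7 CPM to 7.04 and 11.4 CPM (log2 -1.48 ± 0.24, adjusted p = 0.000433). Ndc80 itself fell by 1.44, Cenpi by 1.43, Cenpe, the kinetochore motor, by 1.37 and Spc25 by 0.86 on the log2 scale. The changes of the 4 NDC80 complex subunits thus ran from -1.48 to -0.08, although differences between subunits were not tested. Spc24, the subunit nearest to 0, was at 20.4 and 10.8 CPM in control and 14.9 and 15.1 CPM in dKO, the groups overlapped, and the change was -0.078 ± 0.29 (adjusted p = 0.874). Without cKit control replicate 1 the Spc24 change was 0.46, so its value rests on that library. Cenpk was low, at 5.02 and 3.06 CPM in control and 2.08 and 0.941 CPM in dKO and did not pass (log2 -1.43 ± 0.53, adjusted p = 0.0537). Cenpn, a reader of centromeric nucleosomes, was at 21.4 and 20.7 CPM in control and 14.6 and 13.6 CPM in dKO and did not pass either (log2 -0.58 ± 0.24, adjusted p = 0.0797). Cenpa, the centromeric histone, was called at -0.70 and passed in 11 of 17 other settings.

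Condensin and chromosome structure genes fell in 7 of 7 cases, with a median of -0.91. Ncapg, a condensin I subunit, was at 43.1 and 33.8 CPM in cKit control and 17.5 and 11.6 CPM in cKit dKO (log2 -1.41 ± 0.22, adjusted p = 0.000257). Ncapd2, another condensin I subunit, was at 125 and 103 CPM in control and 38.7 and 48.8 CPM in dKO (log2 -1.38 ± 0.17, adjusted p = 3.61e-05). Smc4, an ATPase of both condensins, changed least of the 7, from 246 and 216 CPM to 158 and 168 CPM (log2 -0.51 ± 0.11, adjusted p = 0.00410). The dKO libraries lay below the controls in each of them. Smc2, the partner of Smc4, fell by 0.94, the third condensin I subunit Ncaph by 0.54, topoisomerase Top2a by 0.91 and Mki67, the proliferation marker Ki-67, by 0.62 on the log2 scale.

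In the anaphase group 4 of 5 genes fell. Espl1, separase, was at 90.5 and 78.1 CPM in cKit control and 21.5 and 27.6 CPM in cKit dKO, a 3.44-fold decrease (log2 -1.78 ± 0.16, adjusted p = 4.83e-06). Pttg1, securin, which holds separase inactive, was at 33.9 and 43.5 CPM in control and 33.9 and 44.1 CPM in dKO (log2 0.017 ± 0.19, adjusted p = 0.961). The groups of Espl1 were well apart and those of Pttg1 overlapped. Cdca5, sororin, a protector of cohesin, was at 36.5 and 42.2 CPM in control and 6.88 and 16.5 CPM in dKO (log2 -1.75 ± 0.27, adjusted p = 0.000274). Its 2 dKO libraries differed from each other, and the log2 change was -1.21 without cKit dKO replicate 1 and -2.48 without replicate 2. The APC/C activator Cdc20 fell by 0.93 and Ube2c, its ubiquitin-conjugating enzyme, by 0.68 on the log2 scale.

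All 4 cytokinesis genes fell, with a median of -1.10. Anln, anillin, the scaffold of the contractile ring, was at 156 and 161 CPM in cKit control and 61.2 and 66.0 CPM in cKit dKO (log2 -1.32 ± 0.12, adjusted p = 4.58e-06). Ect2, which activates RhoA at the cell equator, was at 50.2 and 36.6 CPM in control and 19.5 and 16.6 CPM in dKO (log2 -1.27 ± 0.19, adjusted p = 0.000221). Racgap1, a centralspindlin subunit and a partner of Ect2, was at 56.8 and 53.6 CPM in control and 37.1 and 32.5 CPM in dKO (log2 -0.67 ± 0.15, adjusted p = 0.00416). None of the 3 overlapped between the groups, and Prc1, which bundles the central spindle, fell by 0.92. Ect2 has 2 transcript entries with equal counts in 3 libraries, so some of its reads may be counted more than once. Both cKit dKO libraries are among the 3 (61 and 53 counts), while in cKit control the entries differed (383 against 197, and 197 against 90). The counting thus differs along the tested contrast. With 1 entry per symbol Ect2 was still called lower.

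**Figure D3:**
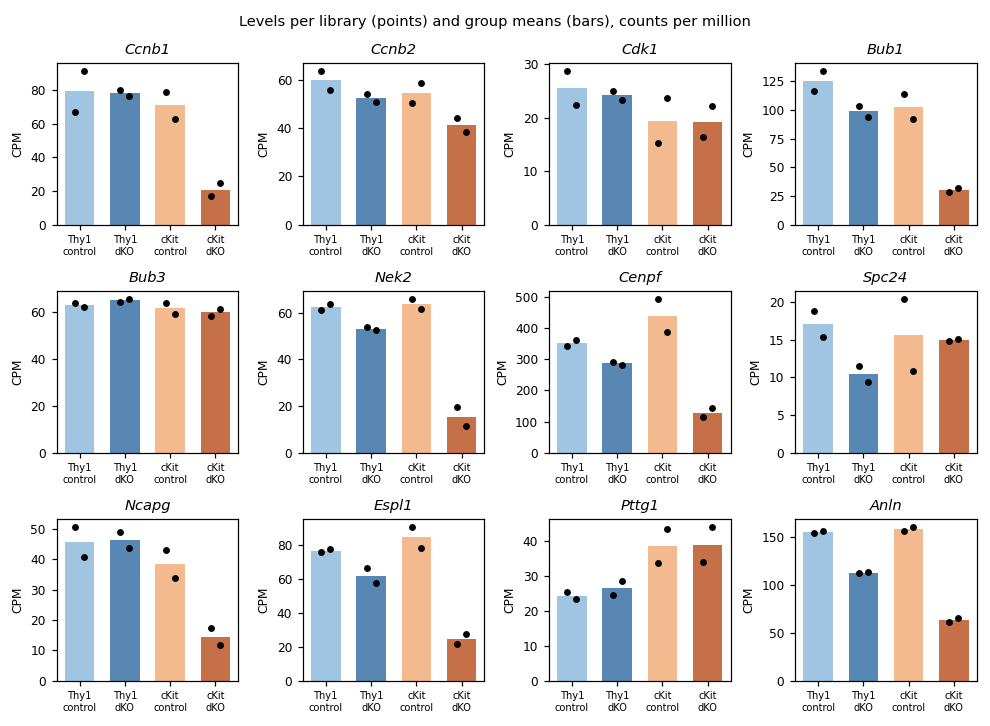
Level of 12 of the genes in CPM in each library (points, 2 per group) with group means (bars, from 0). Ccnb1, Bub1, Nek2, Cenpf, Ncapg, Espl1 and Anln are lowest in both cKit dKO libraries, while Cdk1, Bub3, Spc24 and Pttg1 overlap between cKit control and cKit dKO.

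The ratio of 1 gene to another was computed for 7 chosen pairs of related genes, and in 5 of them both cKit dKO libraries lay below the other 6. On the RPKM scale, which divides by transcript length, the ratio of Ccnb1 to Ccnb2 was 1.04 and 0.710 in cKit control and 0.253 and 0.432 in cKit dKO. It was 0.700 to 1.09 in the 4 Thy1 libraries. The ratio of Bub1 to Bub3 was 0.844 and 0.742 in cKit control and 0.236 and 0.252 in cKit dKO, and 0.681 to 1.03 in Thy1. The ratio of Espl1 to Pttg1 was 0.546 and 0.345 in cKit control and 0.125 and 0.116 in cKit dKO, against 0.340 to 0.4996 in Thy1. Ndc80 to Spc24 stood at 1.92 and 3.06 in cKit control and at 0.844 and 0.945 in cKit dKO, against 2.70 to 3.93 in Thy1. Ccnb1 to Cdk1 stood at 6.41 and 3.29 in cKit control and at 1.27 and 1.39 in cKit dKO, against 2.88 to 5.05 in Thy1. A ratio of genes within a library does not depend on how libraries are scaled. The pairs were picked after their changes were seen, and in each of the 5 a gene called lower was set over one that did not pass. A lower ratio in cKit dKO than in cKit control was thus built into the choice. The share of other gene pairs with such a ratio was not computed. The ratio of Cks1b to Cks2 did not separate the groups, at 7.43 and 5.79 in cKit control and 6.20 and 6.42 in cKit dKO. That of Cenpf to Cenpa, at 3.15 and 2.50 in cKit control and 1.16 and 1.51 in cKit dKO, overlapped with Thy1 dKO, at 1.68 and 1.45.

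By RPKM averaged over the 8 libraries, Ube2c (26.2), Top2a (22.6), Cks1b (19.5), Mki67 (17.97), Ccna2 (17.2) and Smc4 (16.0) were the highest of the 51 genes. Cdc25b (0.723), Cenpk (0.999), Cenpi (1.44), Cdk1 (2.25) and Cdc25c (2.30) were the lowest. The order differed between groups: Top2a was first in cKit control and Ube2c in the other 3 groups, and Cdk1 was at rank 48 in cKit control and rank 39 in cKit dKO, where Espl1 (48) and Nuf2 (47) were lower. The median gene of the 51 was at 7.16 RPKM in Thy1 control and 8.03 RPKM in cKit control. It was at 5.86 RPKM in Thy1 dKO and 2.94 RPKM in cKit dKO. Pttg1 stood at rank 16 of 51 in cKit control and rank 7 in cKit dKO, Bub3 at ranks 15 and 8, and Ccnb1 at ranks 14 and 32. The 25 genes of lower level had a median change of -0.93 in cKit dKO with 18 called, and the 25 of higher level had -1.01 with 23 called. Lower level thus went with fewer calls and a similar median.

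**Figure D4:**
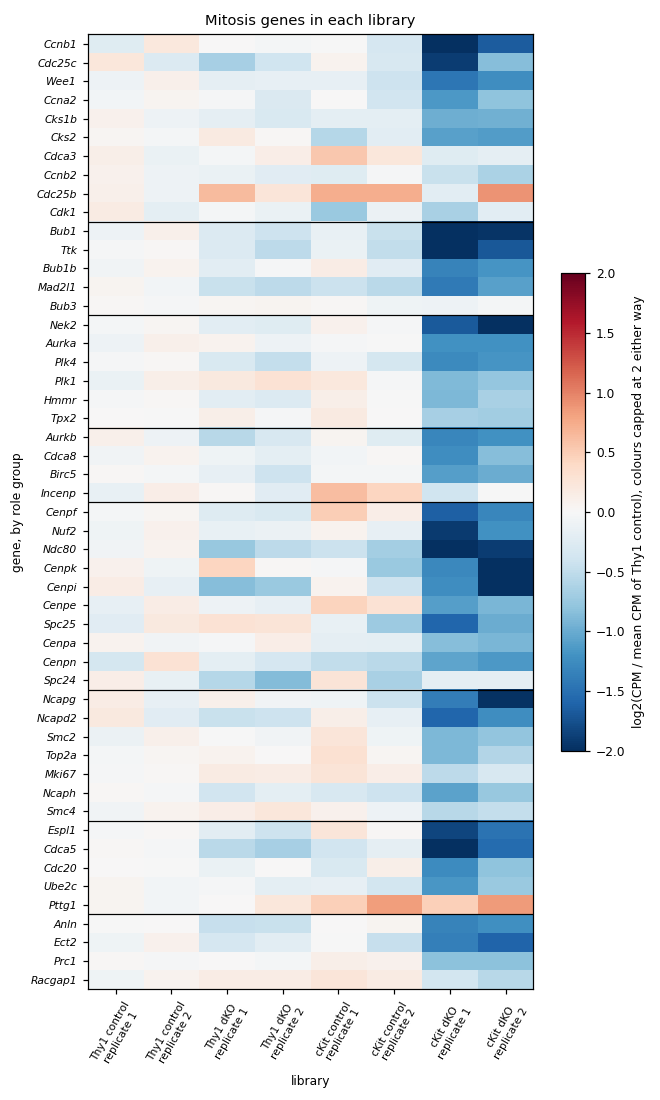
Log2 ratio of each gene's CPM to its mean in Thy1 control, for the 51 genes (rows, by role) in the 8 libraries (columns); colours are capped at 2 either way. Blue fills the 2 cKit dKO columns for most genes, while Bub3 and Pttg1 are not blue there, and the Thy1 dKO columns are pale.

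In Thy1+ cells the summed level of the 51 genes was 4659 and 4877 CPM in control and 4496 and 4371 CPM in dKO, 93.0% of control. No gene of the 51 passed the test with edgeR, 12 had an unadjusted p under 0.05, all lower, and DESeq2 called 2. By edgeR, 0.262% of all genes fell and 0.362% rose, 13.8% had an unadjusted p under 0.05, and 6.25% had one with a lower level in dKO. The share of all genes that DESeq2 called is not given here. The median log2 change of the 51 genes was -0.13 and that of all genes 0.03. Both dKO libraries were below both controls for 24 of the 51 genes, against 22.8% of all genes. They were above both controls for 7, and the share of all genes in that direction was not computed. Under germ cell scaling the median of the 51 was 0.19 and that of all genes 0.34, so the direction of the group depended on scaling here too.

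The lowest adjusted p in Thy1 was that of Ndc80. It was at 82.7 and 90.4 CPM in Thy1 control and 51.2 and 60.2 CPM in Thy1 dKO (log2 -0.64 ± 0.15, adjusted p = 0.0606). Anln was next, with 154 and 156 CPM in control and 113 CPM in both dKO libraries (log2 -0.46 ± 0.11, adjusted p = 0.0711). In neither did the groups overlap. DESeq2 called these 2 genes, and a fit to the 4 Thy1 libraries alone called 8 genes lower, namely Mad2l1, Plk4, Cenpf, Cenpi, Ndc80, Ncapd2, Cdca5 and Anln. Leaving out cKit dKO replicate 1 or 2 gave 4 calls each (Mad2l1, Ndc80, Cdca5 and Anln), and leaving out cKit control replicate 2 gave 1 (Ndc80). The shares of all genes called in these other fits are not given here, so their counts have no background. Spc24 was at 18.8 and 15.4 CPM in Thy1 control and 11.5 and 9.39 CPM in Thy1 dKO (log2 -0.71 ± 0.30, adjusted p = 0.295). Ccnb1, at 67.2 and 91.7 CPM in control and 80.2 and 76.9 CPM in dKO, overlapped between the Thy1 groups.

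**Figure D5:**
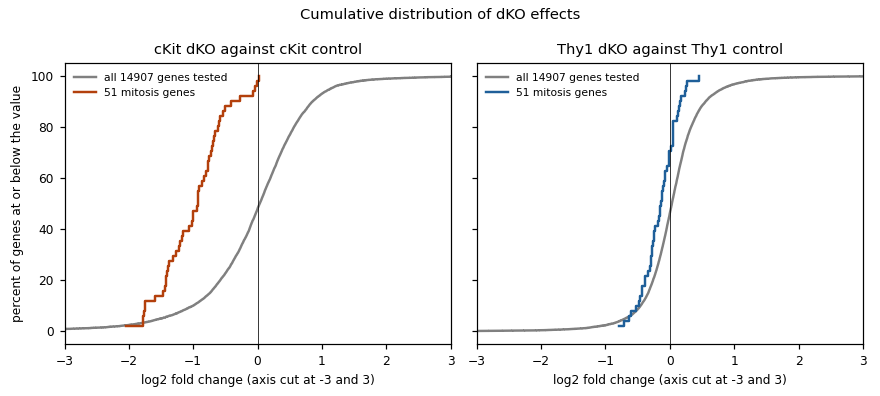
Cumulative distribution of the log2 fold change of dKO against control for the 51 genes and for all 14907 genes tested (TMM scaling; axis cut at -3 and 3), in cKit (left) and Thy1 (right). In cKit the median of the 51 genes is -0.93 against 0.03 for all genes, and in Thy1 it is -0.13 against 0.03; germ cell scaling moves both curves of a panel to the right.

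The dKO effect itself was then compared between the populations as an interaction, the cKit change minus the Thy1 change. It passed for 25 of the 51 genes, all with a more negative change in cKit, and 26 did not pass. Among all genes 4.06% passed in that direction and 1.86% in the other. The median difference of the 51 was -0.82. By role, it passed for 6 of 7 condensin and chromosome structure genes, 4 of 4 cytokinesis genes, 4 of 6 spindle genes, 3 of 5 checkpoint genes, 4 of 10 kinetochore genes, 2 of 10 entry regulators, 1 of 4 passenger genes and 1 of 5 anaphase genes. Nek2 had the largest such difference (log2 -1.82, adjusted p = 0.00179), then Ccnb1 (log2 -1.75, adjusted p = 0.00234). The count fell to 13 without Thy1 control replicate 1, to 9 without Thy1 dKO replicate 1, to 16 without Thy1 dKO replicate 2 and to 12 without cKit control replicate 1. Under germ cell scaling 9 genes passed, all in the opposite direction. The median gene moved to 1.35 there, above the median of 0.57 of the 51 genes. The share of all genes that passed under that scaling is not given here.

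Between the populations in control, 47 of the 51 genes did not pass. Incenp rose from 64.7 and 78.2 CPM in Thy1 to 110 and 96.5 CPM in cKit (log2 0.53, adjusted p = 0.0281), and Pttg1 from 25.4 and 23.4 CPM to 33.9 and 43.5 CPM (log2 0.66, adjusted p = 0.0260). Mad2l1 fell from 95.9 and 89.7 CPM to 69.0 and 64.1 CPM (log2 -0.48, adjusted p = 0.0247), and Ndc80 from 82.7 and 90.4 CPM to 63.9 and 54.2 CPM (log2 -0.55, adjusted p = 0.0158). Each of these 4 calls depended on single libraries: with 1 library left out at a time, Mad2l1 passed in 4 of 8 fits and the other 3 in 5 of 8. Among all genes 9.46% were higher and 10.3% lower in cKit control than in Thy1 control. The median of the 51 genes was -0.09.

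Between the populations in dKO, 41 of the 51 genes were lower in cKit, 1 was higher and 9 did not pass, with a median of -0.83. Among all genes 20.0% were lower and 14.8% higher. Pttg1 was the gene that was higher, at 33.9 and 44.1 CPM in cKit dKO and 24.4 and 28.6 CPM in Thy1 dKO (log2 0.56), and it passed in 3 of 8 fits with 1 library left out. These comparisons share groups with the ones above, so their values are not independent of them. Under germ cell scaling 37 of the 51 genes were called higher in cKit dKO than in Thy1 dKO, and 0 lower. The share of all genes called higher under that scaling is not given here, so the count of 37 has no background.

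Securin has 2 transcript entries, which start at different sites on chr11 (43425981 and 43426248, minus strand, mm10). The entry with the nearer start was at 10.39 and 11.03 CPM in Thy1 control and 14.98 and 17.56 CPM in Thy1 dKO. Its cKit values were 27.5 and 32.5 CPM in control and 26.4 and 31.5 CPM in dKO. All 4 cKit libraries were above all 4 Thy1 libraries for this entry. The other entry was at 14.99 and 12.33 CPM in Thy1 control and 9.46 and 11.03 CPM in Thy1 dKO. In cKit it was at 6.41 and 10.97 CPM in control and 7.52 and 12.55 CPM in dKO. The 2 entries overlap, and how the counting divided their shared reads is not given in the sources used here.

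Other genes of the same machinery, listed by function, moved less uniformly in cKit dKO, and their counts stand beside the 15.4% of all genes that fell and the 13.2% that rose. Of 30 further kinetochore and centromere genes 12 fell and 0 rose, with a median log2 change of -0.64. Dsn1, of the MIS12 complex, fell by 1.95, and Casc5, which recruits the BUB proteins, by 1.03. Among 14 condensin II, cohesin and shugoshin genes 10 fell and 2 rose. Sgol2, a shugoshin that protects centromeric cohesin, fell by 1.19 and the condensin II subunit Ncapg2 by 1.10, while the cohesin loader Nipbl rose by 0.42 and the cohesin subunit Smc1a by 0.36. Of 16 genes of the APC/C and its regulators 4 fell, 0 rose and 12 did not pass, and the median was -0.18. These are too few genes to set apart from the share of all genes. Anapc1, at -0.69, had the largest of these decreases. In the list of 13 transcription factors of the late cell cycle wave, 6 fell and 1 rose: Mybl2 (B-MYB) fell by 1.39, Foxm1 by 1.30 and Lin54, the CHR-binding subunit of MuvB, by 0.61, while Lin52 rose by 1.11. In Thy1 dKO no gene of these 4 lists passed with edgeR, and 2 kinetochore, 2 cohesin or condensin II, 1 APC/C and 1 transcription factor gene had an unadjusted p under 0.05, where 13.8% of all genes tested had one.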

How the data were processed

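Per the labels' protocols, total RNA (Qiagen RNeasy) was amplified with the NuGEN Ovation system before Nextera XT library preparation and HiSeq sequencing. The submitters' processing notes name STAR 2.4.2a and mm10. How reads were counted, and whether by strand, is not given in the sources used here, so reads of genes that overlap on opposite strands cannot be separated. The deposited tables hold whole-number read counts and the authors' RPKM values for 26099 transcript entries, per the file headers. Counts and RPKM were summed per gene symbol, which adds 2 entries for 3 of the 51 genes and may count shared reads more than once.

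Counts were tested with edgeR 4.0.16 in R 4.3.3: filterByExpr (14907 genes kept, all 51 among them), TMM scaling, all 8 libraries in 1 fit with 1 mean per group and 4 residual degrees of freedom, two-sided quasi-likelihood tests and Benjamini-Hochberg adjustment at 0.05. Errors are standard errors of the log2 fold change. The spread is pooled over the groups. Other settings used DESeq2 1.42.0, limma 3.58.1 on log2(RPKM + 1), other scalings and filters, and leaving out libraries; the scripts were tested on simulated data. The totals of 6763908 to 10976869 counts limit the precision of the lowest genes, and the amplified libraries carry no molecular identifiers.

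The 51 genes and all gene lists were chosen with earlier results of these data known. Full statistics are given for the 2 largest and the smallest cKit dKO changes of each role and for every gene that did not pass there (29 genes); others named were chosen after their values were seen. Promoter sequences come from RefSeq (GRCm38.p6), and 8 of the 51 genes had no entry there: Aurkb, Ccna2, Cdc25c, Incenp, Smc4, Spc24, Tpx2 and Wee1.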

Additional observations from a re-analysis of the deposited data

Results flagged for a closer look

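For 16 of the genes given with full statistics, the dKO change differed between cKit and Thy1 by an edgeR quasi-likelihood interaction test with an adjusted p under 0.05; the value is the cKit log2 change minus the Thy1 log2 change. These are a subset of the 25 genes counted above, and the direction of each is relative to the median gene.

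The regulators of entry and the checkpoint gave Ccnb1 at -1.75 (adjusted p = 0.00234; cKit -1.77, Thy1 -0.017), Bub1 at -1.41 (adjusted p = 0.00148) and Ttk at -1.21 (adjusted p = 0.00897). Spindle genes were Nek2 at -1.82 (adjusted p = 0.00179), Aurka at -1.18 (adjusted p = 0.0169) and Tpx2 at -0.82 (adjusted p = 0.0130). The passenger complex gave Cdca8 at -0.86 (adjusted p = 0.0307), and the kinetochore gave Cenpf at -1.496 (adjusted p = 0.000834) and Nuf2 at -1.35 (adjusted p = 0.0261).

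Of the condensin genes, Ncapg differed by -1.43 (adjusted p = 0.0106; cKit -1.41, Thy1 0.021), Ncapd2 by -0.96 (adjusted p = 0.0234) and Smc4 by -0.69 (adjusted p = 0.0204). Espl1 differed by -1.48 (adjusted p = 0.00180), Anln by -0.86 (adjusted p = 0.00631), Ect2 by -0.996 (adjusted p = 0.0368) and Racgap1 by -0.81 (adjusted p = 0.0339).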

How the results depend on the processing

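Of the 42 genes called lower in cKit dKO, 34 were called lower in all 17 settings other than germ cell scaling, and Cdca3, Cenpa, Ncaph, Spc25, Cdc25c, Cdc20, Incenp and Ube2c lost the call in at least 1. Germ cell scaling turned the direction of all 5 medians, and of the calls in cKit dKO, dKO cKit against Thy1 and the interaction: cKit dKO, 30 higher and a median of 0.76; Thy1 dKO, a median of 0.19; control cKit against Thy1, 0.35; dKO cKit against Thy1, 37 higher and 0.95; interaction, 9 higher and 0.57. Germ cell scaling also moved the median gene up, to 1.72 in cKit dKO, 0.34 in Thy1 dKO and 1.35 for the interaction. For the comparisons of cKit against Thy1 the median gene under that scaling is not given here. Nor are the shares of all genes called, so the counts of 30, 37 and 9 have no background. In Thy1 dKO, DESeq2 called 2 genes, no filter on low counts 2, and the 4 libraries alone 8. The shares of all genes called in these fits are not given here. In control cKit against Thy1, 1 entry per symbol left 2 calls, and limma on log2(RPKM + 1) gave a median of 0.12. Library totals alone moved the median of all genes in cKit dKO to -0.10 and limma on RPKM to -0.20.

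With 1 library left out at a time, calls and medians ran from 36 to 41 and -1.03 to -0.78 in cKit dKO, 0 to 4 and -0.21 to -0.0820 in Thy1 dKO, 1 to 5 and -0.16 to 0.0045 in control cKit against Thy1, 36 to 42 and -0.88 to -0.70 in dKO cKit against Thy1, and 9 to 29 and -0.86 to -0.70 for the interaction. Where 1 library of an arm remained, its spread is taken from the other groups. The shares of all genes called in these fits are not given here.

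Genes near 0 changed sign. In cKit dKO, DESeq2 size factors and the DESeq2 test gave 0.048 and 0.045 for Cdk1 and 0.0089 and 0.0087 for Bub3. Pttg1 was at -0.12 with library totals, -0.25 with RPKM and -0.050 with 1 entry. With 1 library left out at a time, cKit dKO changes ran from -0.30 to 0.38 for Cdk1, -0.048 to 0.044 for Bub3, -0.40 to 0.46 for Spc24, -0.16 to 0.25 for Pttg1 and -0.90 to 0.22 for Cdc25b. Thy1 dKO changes ran from -0.22 to 0.22 for Ccnb1, -0.25 to 0.11 for Cdk1, -0.12 to 0.0842 for Aurka, -0.0205 to 0.11 for Tpx2, -0.24 to 0.0475 for Incenp, -0.13 to 0.18 for Ncapg and -0.55 to 0.0919 for Cenpn, and Pttg1 was at -0.0929 with RPKM. The cause of these changes was not tested.

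Replicate numbers gave no sign of a shared shift, since differences between replicates correlated at -0.045 to 0.052 across genes. With 2 libraries per group this cannot show whether libraries of the same number shared animals or preparation. With the replicate number as a block the calls were 42, 0, 5, 43 and 25 in cKit dKO, Thy1 dKO, control cKit against Thy1, dKO cKit against Thy1 and the interaction.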

Other observations

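The 2 cKit control libraries were not level for these genes: replicate 1 was above replicate 2 in 40 of the 51, with a median log2 difference of 0.19. In cKit dKO replicate 1 was above replicate 2 in 11 of the 51, with a median of -0.17. The germ cell markers differed the same way, with sums of 2482 against 1956 CPM in cKit control and 599 against 787 CPM in cKit dKO.

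Scaled on the germ cell markers, 6 of the 51 genes were still below 0 in cKit dKO, none past the edgeR test: Nek2 (log2 -0.32), Cdca5 (-0.14), Espl1 (-0.11), Cenpf (-0.10), Ccnb1 (-0.10) and Bub1 (-0.06). At the other end were Spc24 (1.66), Pttg1 (1.66), Bub3 (1.65) and Cdk1 (1.62), near the 1.72 of the median gene.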
